A study of Mus musculus with 8 samples.

Results

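The CXC chemokines are a family of small secreted proteins named for the spacing of their conserved cysteines, and 9 of them together with the receptor gene Cxcr4 are described here in mammary tumours of neu-transgenic mice. All probes whose symbol, or current name through the transcript accession, was one of these 10 genes were taken, which gave 13 of the 24341 probes on the array and 10 of 18211 named genes. Total RNA from 8 spontaneous mammary tumours was hybridised to Illumina bead arrays, 4 from mice given control cream and 4 from mice given imiquimod cream for 1 cycle. All mice were of the strain FVB/N-TgN (MMTVneu)-202Mul, in which the neu oncogene is driven by a mammary tumour virus promoter. Both groups therefore carried the transgene and received a cream. Imiquimod activates TLR7, a sensor of single-stranded RNA in immune cells. Nothing in the labels ties tumours to individual mice, and the p-values therefore reflect the spread among these 8 samples alone, part of which may be technical.

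Chemokines bind receptors on leukocytes that are coupled to G proteins, and the cells move towards the source. Cxcl1, Cxcl2 and Cxcl5 attract neutrophils through Cxcr2, and their genes are classical targets of NF-kB. Cxcl9 and Cxcl10 attract activated T cells and natural killer cells through Cxcr3 and are induced by interferons. Cxcl16 is made as a membrane protein that binds Cxcr6 and takes up oxidised lipids, Cxcl12 is the stromal ligand of Cxcr4, Cxcl13 draws B cells through Cxcr5, and Cxcl14 is made by epithelia such as skin.

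Cxcl9 and Cxcl16 rose in the imiquimod tumours, Cxcl9 by 5.04-fold and Cxcl16 by 2.26-fold in array signal. The other 5 genes that could be tested did not pass, and among them Cxcl1, Cxcl12 and Cxcl13 were nevertheless higher in each imiquimod tumour than in any control. Cxcl2, Cxcl5 and Cxcl10 were dim on average over the 8 arrays and were not tested. Values are log2 signals, and every difference is given as imiquimod minus control in log2 units. A gene was tested where the mean of its probe over the 8 arrays was at or above a log2 signal of 6.639, a limit that left 16228 of the 24341 probes, and 7 of the 10 genes, with 9 of the 13 probes, were. An adjusted p below 0.05 over all 13143 genes and unnamed probes was the threshold, which 569 passed (4.33%), 280 of them higher (2.13%) and 289 lower (2.2%). Of the 7 genes tested, 2 were called higher and none lower. The groups did not overlap, with imiquimod higher, in 5 of the 7, against 5.52% of everything tested, and in none with imiquimod lower, against 7.11%. Cxcl13 reached the limit through its imiquimod values alone, with a control mean of 6.46, so these counts describe the genes tested and not the family. Some genes of the lists below were also tested with a control mean under the limit. In a whole tumour, more cells of a type and more RNA per cell cannot be told apart.

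**Figure D1:**
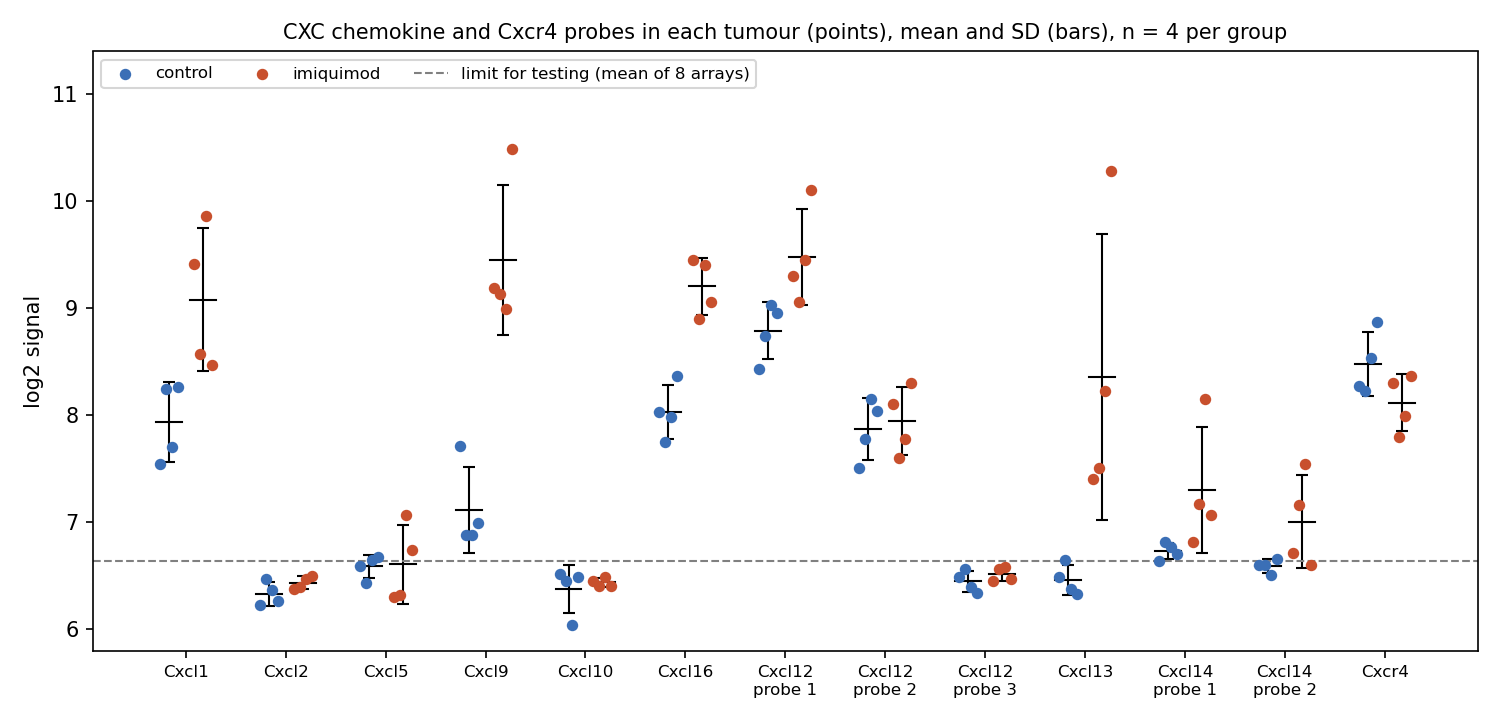
Log2 signal (vertical axis) of the 13 probes of the 10 genes (horizontal axis) in the 4 control and 4 imiquimod tumours, 1 point per tumour, with the mean and SD as black bars and the limit of 6.639 as a dashed line. Cxcl1, Cxcl9, Cxcl13, Cxcl16 and the brightest Cxcl12 probe separate the groups. Cxcl13 has 1 imiquimod tumour at 10.29, and Cxcl2 and Cxcl10 lie under the line in both groups.

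Some facts of the whole series touch these results. The arrays had medians of 6.816 to 6.824. Their maxima were 14.86 in all controls but 15.07 in all imiquimod samples, and treatment cannot be told apart from any step of processing done group by group. Tumours 3 and 4 of the imiquimod group carried the most skeletal muscle signal (8 tested markers lay on average 1.87 and 1.79 above their control means in log2 units, and -0.31 to 0.60 from them in controls, none of the 8 passing). For the chemokines and the listed genes named below, the value without both of them is given where the call was lost.

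Cxcl9, the interferon-induced ligand of Cxcr3, had the largest log2 fold change of the 7 tested genes (probe 1570673). Its log2 signals were 7.71, 6.88, 6.88 and 6.99 in control tumours 1 to 4 and 9.19, 9.13, 8.99 and 10.49 in imiquimod tumours 1 to 4. Every imiquimod tumour lay above every control, imiquimod 4 was well above the rest of its group, and control 1 was the highest control. The means were 7.12 ± 0.40 and 9.45 ± 0.70 (SD, n = 4 each), a log2 fold change of 2.33 (SE 0.33, 95% interval 1.58 to 3.09, limma adjusted p = 0.00827). Without imiquimod 4 the log2 fold change was 1.99 (adjusted p = 0.00532), and without control 1 it was 2.53 (adjusted p = 0.0112).

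Cxcl10, the ligand of the same receptor that type I interferon induces as well, gave no readable signal (probe 2450408). Its log2 signals were 6.52, 6.45, 6.04 and 6.48 in control tumours 1 to 4 and 6.45, 6.41, 6.48 and 6.40 in imiquimod tumours 1 to 4. The groups overlapped, and the mean over all arrays was lower than all but 8.57% of the probes on the array. The difference of 0.06 is that of a dim probe and says little of the transcript. Cxcl11, another ligand of Cxcr3, had a control mean of 6.82 and a log2 fold change of -0.11 (adjusted p = 0.484), and Cxcr3 itself had a control mean of 6.64, at the limit, and a log2 fold change of 0.01 (adjusted p = 0.957). Cxcl9 was thus the single ligand of Cxcr3 whose probe carried signal well over the limit.

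Cxcl9 and Cxcl10 are neighbours on mouse chromosome 5 with the gene Art3 between them. The 250 bases before the start of each are shown, although only the Cxcl9 probe of the pair was bright enough to test. They are from RefSeq with the build GRCm38.p6, 5′ to 3′ on the strand of the gene. Capitals mark matches to 3 motifs searched on both strands, the interferon element GAAANNGAA, the STAT site TTCNNNGAA and the NF-kB site GGNNTTTCC.
Cxcl9 (chr5:92328080-92328329, minus strand): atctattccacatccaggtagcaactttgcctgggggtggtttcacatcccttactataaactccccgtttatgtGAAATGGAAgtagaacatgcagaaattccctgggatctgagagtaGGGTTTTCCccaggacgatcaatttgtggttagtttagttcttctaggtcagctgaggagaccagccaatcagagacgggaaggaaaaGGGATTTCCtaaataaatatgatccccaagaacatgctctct
Cxcl10 (chr5:92348890-92349139, minus strand): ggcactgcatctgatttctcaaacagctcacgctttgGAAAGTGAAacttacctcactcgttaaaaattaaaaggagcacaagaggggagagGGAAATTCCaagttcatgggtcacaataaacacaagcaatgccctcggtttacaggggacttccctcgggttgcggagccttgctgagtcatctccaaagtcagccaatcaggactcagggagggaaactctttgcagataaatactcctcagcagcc
Each stretch held 1 interferon element, GAAATGGAA for Cxcl9 and GAAAGTGAA for Cxcl10, a motif found in 7.13% of 32851 mouse promoter windows of that length. Cxcl9 held 2 NF-kB sites, GGGTTTTCC and GGGATTTCC, and Cxcl10 held 1, GGAAATTCC, a motif in 4.93% of all windows. The matches did not overlap one another. These counts depend on the letters asked for. With an A required after the interferon element (2.98% of windows) and a G before the NF-kB site (1.41%), Cxcl10 kept its interferon element and no other match remained in the pair. The STAT site, found in 7.02% of all windows, stood in 1 of the 8 windows matched to these genes, that of Cxcl14, which held an interferon element too.

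Cxcl16, the membrane-bound ligand of Cxcr6, rose with the smallest spread (probe 510278). Its log2 signals were 8.03, 7.75, 7.98 and 8.36 in control tumours 1 to 4 and 9.45, 8.90, 9.41 and 9.06 in imiquimod tumours 1 to 4. The groups did not overlap and no tumour stood apart. From 8.03 ± 0.25 to 9.21 ± 0.27 (SD, n = 4 each), the log2 fold change was 1.17 (SE 0.16, 95% interval 0.81 to 1.54, adjusted p = 0.00655). With imiquimod 3 and 4 both left out it was 1.15, but the call was lost (adjusted p = 0.0682). Its receptor Cxcr6 had a log2 fold change of 0.12 (95% interval -0.08 to 0.32, adjusted p = 0.496), and of the proteases that shed Cxcl16 from the membrane, Adam17 had 0.10 (adjusted p = 0.633) and Adam10 was under the limit. The gene Arrb2, which lies near Cxcl16 on chromosome 11 and encodes an arrestin that ends chemokine receptor signals, also rose (0.58, SE 0.12, adjusted p = 0.0299), a call lost in 8 of 20 alternatives, among them that without imiquimod 3 and 4 (0.43, adjusted p = 0.246).

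**Figure D2:**
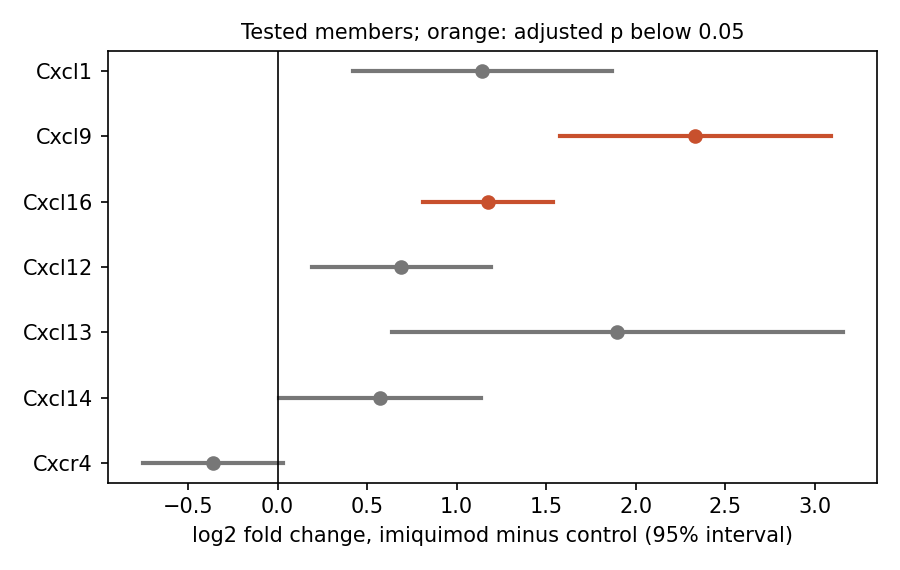
Log2 fold change, imiquimod minus control (horizontal axis), of the 7 tested genes (vertical axis), with points for the estimate, lines for the 95% interval from limma and orange for an adjusted p below 0.05. Cxcl9 at 2.33 and Cxcl16 at 1.17 are the 2 genes past the threshold, and Cxcr4 at -0.36 is the one estimate below 0.

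Of the neutrophil attractants Cxcl1, Cxcl2 and Cxcl5, Cxcl1 alone was above the limit (probe 2690537). Its log2 signals were 7.54, 8.24, 7.70 and 8.26 in control tumours 1 to 4 and 9.42, 8.58, 9.86 and 8.47 in imiquimod tumours 1 to 4. The groups did not overlap, but imiquimod 2 and 4 lay just above the highest control while imiquimod 1 and 3 lay far above it. The log2 fold change of 1.14 (SE 0.32, 95% interval 0.42 to 1.87) did not pass (adjusted p = 0.0824), and none of 20 alternatives brought it past the threshold (0.0593 to 0.211).

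Cxcl2, which acts on the same receptor as Cxcl1, was dim (probe 610398). Its log2 signals were 6.23, 6.47, 6.36 and 6.26 in control tumours 1 to 4 and 6.37, 6.39, 6.47 and 6.50 in imiquimod tumours 1 to 4. The ranges overlapped and lay under the limit. Cxcl5 was dim as well (probe 6370333), with 6.59, 6.43, 6.65 and 6.67 in control tumours 1 to 4 and 6.30, 6.32, 7.06 and 6.74 in imiquimod tumours 1 to 4. Imiquimod 3 was highest, as it was for Cxcl1. Both receptors of this group gave little signal, Cxcr2 with a log2 fold change of 0.09 (adjusted p = 0.649) and Cxcr1 under the limit.

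Cxcl1 and Cxcl2 lie side by side on chromosome 5, and the stretches before their starts are shown because they share a motif although only Cxcl1 was bright enough to test. Capitals mark the NF-kB site GGNNTTTCC on either strand, the one motif of the 3 found in them, and the build, source and direction are those given for Cxcl9.
Cxcl1 (chr5:90890995-90891244, plus strand): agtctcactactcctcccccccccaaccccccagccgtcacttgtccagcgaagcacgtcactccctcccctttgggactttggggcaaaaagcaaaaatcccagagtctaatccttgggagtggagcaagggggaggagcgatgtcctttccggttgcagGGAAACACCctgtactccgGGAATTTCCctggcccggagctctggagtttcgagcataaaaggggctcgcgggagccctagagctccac
Cxcl2 (chr5:90903649-90903898, plus strand): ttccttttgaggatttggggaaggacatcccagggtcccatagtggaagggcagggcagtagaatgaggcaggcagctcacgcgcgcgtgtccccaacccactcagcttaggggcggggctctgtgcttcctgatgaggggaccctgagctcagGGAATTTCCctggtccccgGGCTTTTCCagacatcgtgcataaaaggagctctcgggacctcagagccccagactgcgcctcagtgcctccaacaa
Each held 2 matches, and GGAATTTCC stands in both. All 4 remained with a G required before the site, a form that none of the other 6 windows matched to these genes held. The match is a description of the letters and was not tested as a binding site.

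Cxcl1 and the mean of the neutrophil markers both peaked in imiquimod 3, but the other imiquimod tumours ranked differently. None of 9 tested markers passed (2 had an unadjusted p below 0.05 in limma), and 5 of the 15 listed markers were under the limit, Ngp, Camp, Mmp8, Ctsg and Cxcr1. The mean log2 difference of the 9 from the control mean was 0.14, 0.84, 1.04 and 0.63 in imiquimod tumours 1 to 4. In controls it was -0.11 to 0.13. Much of the value in imiquimod 2 came from 1 gene, Ltf, at 14.76 there against a control mean of 8.83. Ltf stood at 8.92, 11.85 and 11.39 in imiquimod tumours 1, 3 and 4. The log2 fold changes were 2.89 for Ltf (limma adjusted p = 0.149) and 1.76 for S100a8 (adjusted p = 0.0654). S100a9 had 0.59, Lcn2 0.38 and Retnlg 0.21, while Csf3r (0.12), Cxcr2 (0.09), Mpo (0.005) and Elane (-0.08) lay near 0. The mean thus rested mostly on Ltf and S100a8 and says little of neutrophils as a whole. Lcn2 lay near the top of the array in both groups (means of 14.64 in controls and 15.02 with imiquimod). Imiquimod 1 had the lowest mean of these markers in its group and the second highest Cxcl1. The part of these cells in the Cxcl1 values was not tested.

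Cxcl13, the B cell attractant, had the widest spread. Its log2 signals (probe 6290402) were 6.49, 6.65, 6.38 and 6.33 in control tumours 1 to 4 and 7.40, 7.51, 8.22 and 10.29 in imiquimod tumours 1 to 4. Controls lay at the dim end of the array, every imiquimod tumour was above them, and imiquimod 4 was far above the rest. The log2 fold change of 1.90 (SE 0.55, 95% interval 0.64 to 3.16) did not pass (adjusted p = 0.0929). The imiquimod SD of 1.34, against 0.14 in controls, came mostly from that tumour. Without imiquimod 4 the log2 fold change was 1.25 and passed (adjusted p = 0.0213), and without imiquimod 3 and 4 it was 1.00 and passed (adjusted p = 0.0194). With a normexp background correction at an offset of 16 it was 2.90 and passed (adjusted p = 0.0288). The other 17 alternatives did not pass.

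The cells that Cxcl13 is known to attract could hardly be read. Both probes of its receptor Cxcr5 were under the limit, as were the B cell markers Cd79a, Pax5, Blk and Fcer2a. Of the 3 B cell markers tested, Ighm, the immunoglobulin M heavy chain, rose (1.04, SE 0.15, adjusted p = 0.00796, but 0.99 and 0.0568 without imiquimod 3 and 4), Cd79b had 0.25 (adjusted p = 0.142) and Cr2 had -0.09 (adjusted p = 0.562). Cd79b had a control mean of 6.62, under the limit, and was tested only through its imiquimod values. The mean difference over these 3 markers was 0.42, 0.27, 0.30 and 0.60 in imiquimod tumours 1 to 4. In controls it was -0.13 to 0.09. Imiquimod 4, the tumour with the highest Cxcl13, had the highest mean. Most of the mean came from Ighm, so it says little of B cells as a whole. The part of B cells in the Cxcl13 values was not tested.

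Cxcl12, which holds leukocytes and stem cells in the stroma through Cxcr4, was read by 3 probes that did not give one answer. The brightest probe (4150750) had log2 signals of 8.44, 8.74, 9.03 and 8.96 in control tumours 1 to 4 and 9.30, 9.06, 9.45 and 10.10 in imiquimod tumours 1 to 4. The groups were separate by a narrow margin, imiquimod 2 lying just above control 3. The log2 fold change was 0.69 (SE 0.22, 95% interval 0.19 to 1.19, adjusted p = 0.117), and 0.39 without imiquimod 3 and 4 (adjusted p = 0.456).

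The second Cxcl12 probe (4570068), designed on another transcript record of the gene, had 7.50, 7.78, 8.15 and 8.04 in control tumours 1 to 4 and 8.11, 7.60, 7.78 and 8.30 in imiquimod tumours 1 to 4. Here the groups overlapped almost entirely. In a limma fit of all 16228 probes above the limit, of which 653 passed (4.02%, with 2% higher and 2.03% lower), its log2 fold change was 0.08 (95% interval -0.33 to 0.49, adjusted p = 0.867). The third probe (580546), on the same record as the second, was dim, with a difference of 0.07.

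Within each tumour, the brighter probe exceeded the second by 0.93, 0.96, 0.88 and 0.91 in control tumours 1 to 4 and by 1.20, 1.46, 1.67 and 1.80 in imiquimod tumours 1 to 4. The controls were close together and every imiquimod tumour was higher. The means were 0.92 ± 0.03 and 1.53 ± 0.26 (SD, n = 4 each), a difference of 0.61 (exact permutation test, two-sided, p = 0.0286, the smallest that 70 arrangements allow). Adjusted over the 2 probe pairs compared, of Cxcl12 and Cxcl14, p was 0.0571 and did not pass. This is a measure of unequal change and not of the level of either transcript.

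**Figure D3:**
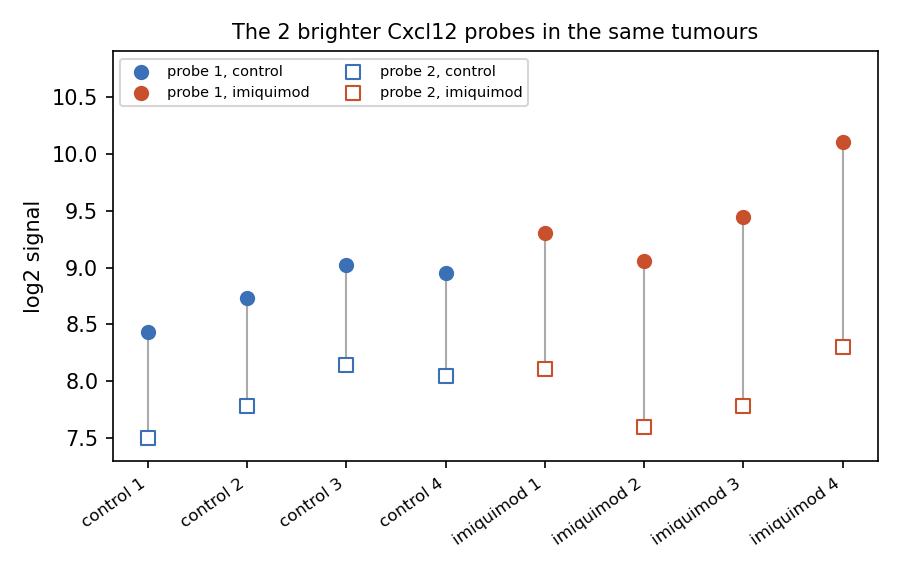
Log2 signal (vertical axis) of the 2 brighter Cxcl12 probes in each of the 8 tumours (horizontal axis), with filled circles for the first, open squares for the second and a grey line joining the pair. The line is 0.88 to 0.96 long in controls and 1.20 to 1.80 in imiquimod tumours.

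Markers of fibroblasts and pericytes, cells that commonly make Cxcl12, were uneven among the imiquimod tumours. Of 10 tested, 1 rose, the matrix proteoglycan gene Dcn (2.35, SE 0.54, adjusted p = 0.0483), a call lost in 10 of 20 alternatives, among them that without imiquimod 3 and 4 (1.81, adjusted p = 0.347). Of the 10, 3 had control means under the limit, Col1a2, Col3a1 and Lum. The mean difference over the 10 markers was -0.04, 0.88, 1.24 and 0.76 in imiquimod tumours 1 to 4 and -0.19 to 0.14 in controls. Imiquimod 1 lay within the controls on these markers. Its Cxcl12 signal lay above the controls on the brightest probe (9.30) but within them on the second (8.11, against 7.50 to 8.15). Endothelial markers, none of 8 passing and none with an unadjusted p below 0.05, had mean differences of 0.02, -0.05, 0.45 and 0.53. The part of either cell type in the Cxcl12 values was not tested.

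Cxcr4, the receptor of Cxcl12 on leukocytes, endothelium and many tumour cells, was the one of the 7 tested genes with a lower mean under imiquimod (probe 4590519). Its log2 signals were 8.28, 8.23, 8.54 and 8.88 in control tumours 1 to 4 and 8.30, 7.80, 8.0 and 8.36 in imiquimod tumours 1 to 4. The ranges overlapped, with imiquimod 1 and 4 within the controls. The log2 fold change of -0.36 (SE 0.17, 95% interval -0.75 to 0.03) did not pass (adjusted p = 0.281), and it lay between -0.45 and -0.23 over 20 alternatives, none of which passed. The second receptor of Cxcl12, the scavenger Ackr3, had a log2 fold change of 0.04 at a control mean of 6.66, near the limit.

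Cxcl14, the epithelial member, was low and uneven. The brighter of its 2 probes (840114) had 6.63, 6.82, 6.77 and 6.71 in control tumours 1 to 4 and 6.82, 7.17, 8.15 and 7.07 in imiquimod tumours 1 to 4. Imiquimod 3 was alone in its height, and imiquimod 1 did not exceed the highest control. The log2 fold change was 0.57 (SE 0.25, 95% interval 0.01 to 1.13, adjusted p = 0.238), and 0.29 without imiquimod 3 (adjusted p = 0.212) or 0.26 without imiquimod 3 and 4 (adjusted p = 0.461).

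The second Cxcl14 probe (6450324) had 6.60, 6.60, 6.51 and 6.66 in control tumours 1 to 4 and 6.71, 7.16, 7.54 and 6.60 in imiquimod tumours 1 to 4. Again imiquimod 3 was highest. The probe fit gave 0.41 (95% interval -0.01 to 0.83, adjusted p = 0.26), and the change of the 2 probes did not differ beyond their spread (difference 0.16, exact permutation test, two-sided, p = 0.371). Of 6 basal epithelial and epidermal markers tested, the keratin gene Krt14 rose (1.39, SE 0.30, adjusted p = 0.0361; lost in 8 of 20 alternatives). The mean over these markers was highest in imiquimod 1 (1.16) and lay at 0.37, 0.17 and 0.13 in imiquimod tumours 2 to 4. The part of these cells in the Cxcl14 values was not tested.

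The members thus peaked in different tumours. Imiquimod 4 was highest for Cxcl9, Cxcl13 and the brightest Cxcl12 probe, imiquimod 3 for Cxcl1, Cxcl14 and the dim Cxcl5, and imiquimod 1 for Cxcl16, closely followed by imiquimod 3. As differences from the control mean, Cxcl9 stood at 2.07, 2.02, 1.87 and 3.37 in imiquimod tumours 1 to 4 and Cxcl1 at 1.48, 0.64, 1.92 and 0.53. Macrophage and monocyte markers, of which 7 of 14 tested rose, had mean differences of 0.64, 0.56, 1.32 and 1.00 in those tumours and -0.11 to 0.18 in controls. They include Cd14, the endotoxin co-receptor (2.55, SE 0.32, adjusted p = 0.00513), and C1qb, of complement (1.36, SE 0.18, adjusted p = 0.00606), and macrophages are known to make several of these chemokines. The 7 that did not pass were Fcgr3 (0.87), Cd68 (0.66), Mrc1 (0.33), Lyz2 (0.21), Csf1r (0.06), Msr1 (0.03) and Ccr2 (0.03). Without imiquimod 3 and 4, 3 of the 7 that rose kept their calls, Adgre1, Cd14 and C1qb, and the other 4 lost them. One of those 4, the IgG receptor gene Fcgr1, had a control mean under the limit of 6.639. Without imiquimod 3 and 4 its log2 fold change was 0.48 (adjusted p = 0.115), and it lost its call in 7 of 20 alternatives. T cell markers, none of 12 passing and none with an unadjusted p below 0.05, stayed between -0.07 and 0.14 in the imiquimod tumours. Their control means ran only from 6.64 for Cxcr3, at the limit, to 7.22 for Cd3d. Flat values at such low signal say little of T cell number. Whether macrophages or T cells carry the chemokine values was not tested.

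**Figure D4:**
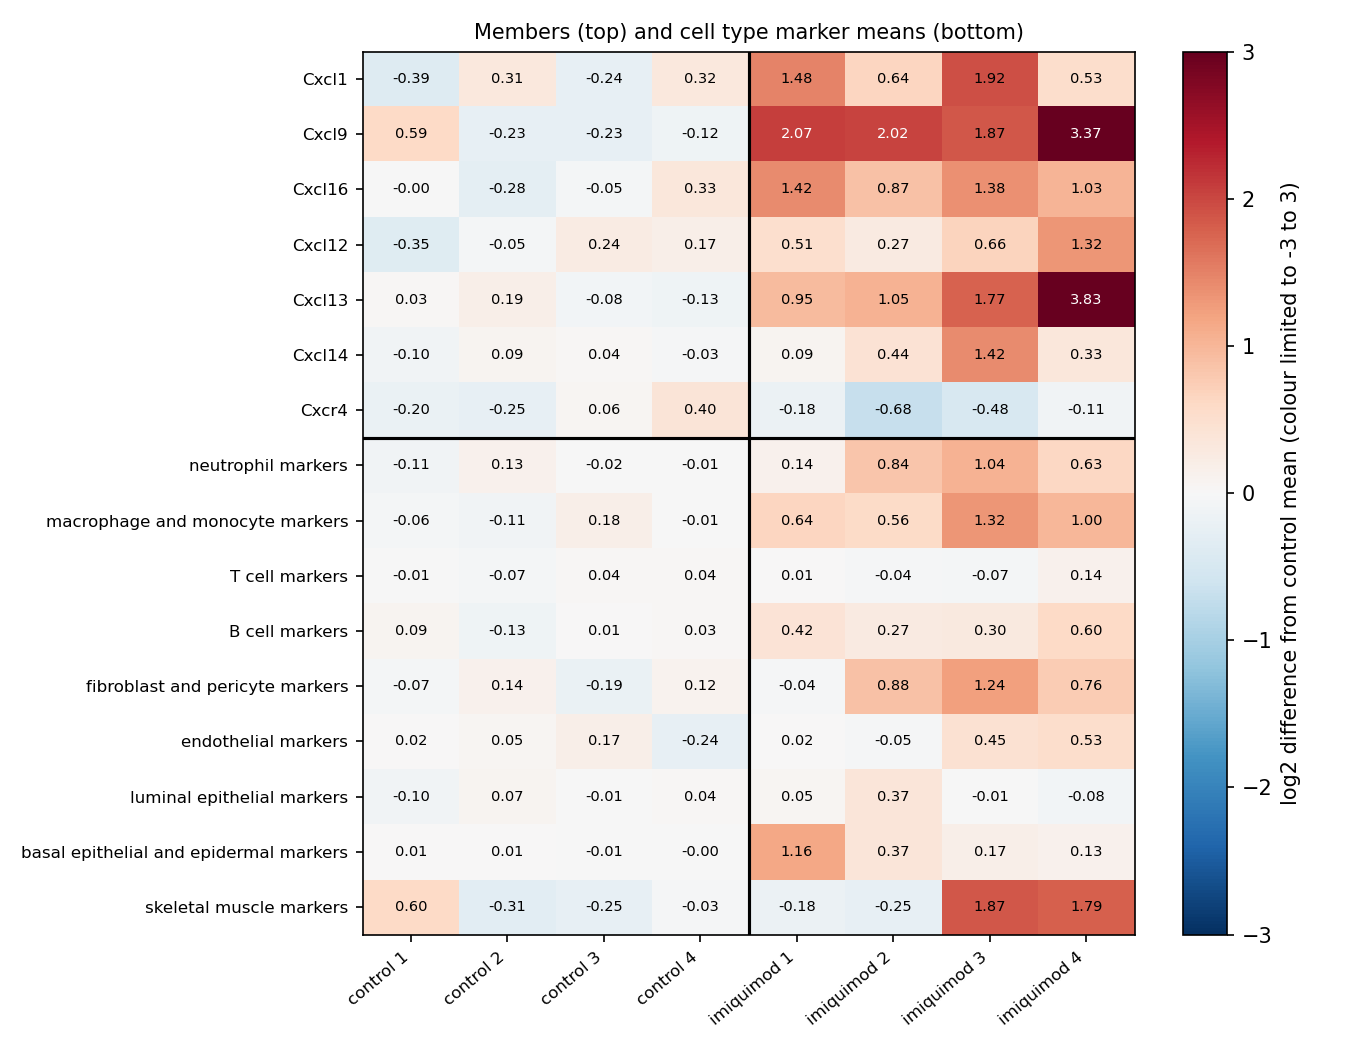
Log2 difference from the control mean (colour and printed number) in each tumour (columns) for the 7 tested genes (upper rows) and for the mean over each cell type marker list (lower rows). Cxcl9 and Cxcl13 reach 3.37 and 3.83 in imiquimod 4, Cxcl1 1.92 and Cxcl14 1.42 in imiquimod 3, and skeletal muscle markers are high in imiquimod 3 and 4.

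The genes most like each member were taken as the 3 with the highest Pearson r over the 8 tumours, a description to which the difference between the groups contributes. For Cxcl9 they were the transcription factor gene Batf2, the IgG receptor gene Fcgr4 and Lst1, with r of 0.981, 0.981 and 0.98, and 0.886, 0.909 and 0.879 for deviations from the group means. For Cxcl16 they were Pnp, a purine salvage enzyme (0.981), Sectm1b (0.976) and Evi2a (0.974). Those 6 genes all rose with imiquimod, Fcgr4 most (3.43) and Pnp least (0.76). For Cxcl1 they were Kdsr (0.973), Ndel1 (0.967) and the immediate-early gene Fos (0.961), for Cxcl13 Stk17b (0.979), Zc3h12d (0.967) and Was (0.965), and for Cxcl12 Pilra (0.989), Prkcb (0.97) and Cacul1 (0.964). None of these 9 passed the threshold. Cxcl14 was matched by Ptn (0.987), Gpx7 (0.985) and Nfil3 (0.984), and Cxcr4 by Negr1 (0.975), Mxi1 (0.971) and Nrg1 (0.966), none of which passed either.

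Among the rest of the family and its receptors, no tested gene passed. Of 6 other CXC chemokine genes, 4 were tested and none passed (none with an unadjusted p below 0.05 in limma), with a median log2 fold change of 0.19 against -0.02 over everything tested. Pf4, a platelet chemokine, had 6.47, 6.66, 6.69 and 6.40 in control tumours 1 to 4 and 6.41, 7.56, 8.44 and 6.87 in imiquimod tumours 1 to 4. Its log2 fold change was 0.76 (95% interval -0.08 to 1.61, adjusted p = 0.292), with the same tumour highest as for Cxcl14. Ppbp, also of platelets, had 0.10 and Cxcl17, a mucosal chemokine, 0.29, while Cxcl3 and Cxcl15 were under the limit. Pf4 and Cxcl17 each had a control mean of 6.55, under the limit, and were tested only through their imiquimod values. Of 9 CXC and atypical receptors, 7 were tested and none passed (1 with an unadjusted p below 0.05). That one was Ackr1, a chemokine-binding receptor of venules and red cells (0.36, 95% interval 0.05 to 0.67, adjusted p = 0.176). Ackr1 had a control mean of 6.52, also under the limit, and was tested only through its imiquimod values. Ackr2 and Ackr4, scavengers of CC chemokines, had 0.09 and -0.11.

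Genes that induce these chemokines or carry their signals rose in part. On the interferon side, 6 of 14 tested genes rose and none fell, with a median of 0.38. Irf7, the master regulator of type I interferon, rose by 2.63 (SE 0.43, adjusted p = 0.0141), the receptor chain Ifngr1 by 0.64 (SE 0.11, adjusted p = 0.0174), and Stat2 by 0.87 (SE 0.16, adjusted p = 0.0221). Control 1, the control with the highest Cxcl9, also had the highest control value of Irf7 (9.58, against 7.49 to 8.09). Without imiquimod 3 and 4 all 6 calls were lost, with log2 fold changes of 2.97 for Irf7 (adjusted p = 0.0739), 0.57 for Ifngr1 (0.169) and 0.90 for Stat2 (0.108). Over the 20 alternatives Stat2 lost its call in 6, Ifngr1 in 5 and Irf7 in that one.

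On the side of NF-kB and interleukin 17, 3 of 15 tested genes rose and none fell, with a median of 0.17. They were Nfkbiz, an NF-kB cofactor (0.85, SE 0.13, adjusted p = 0.0113), the cytokine gene Tnf (0.56, SE 0.10, adjusted p = 0.0203) and the subunit gene Relb (0.39, SE 0.08, adjusted p = 0.0287). Tnf had a control mean of 6.51, under the limit of 6.639, and was tested only through its imiquimod values, which bears on this count. Without imiquimod 3 and 4 all 3 calls were lost, with log2 fold changes of 0.76 for Nfkbiz (adjusted p = 0.103), 0.61 for Tnf (0.0696) and 0.42 for Relb (0.0736). Over all alternatives Relb lost its call in 8 of 20, Tnf in 5 of 19 and Nfkbiz in that one. Among 13 genes of receptor signalling, 2 rose, Arrb2 as given above and the GTPase gene Rac2, which drives leukocyte movement (1.01, SE 0.18, adjusted p = 0.0206; lost in 3 of 20 alternatives). The regulators Rgs1 (0.20, adjusted p = 0.128) and Rgs16 (0.55, adjusted p = 0.165) did not pass.

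None of 8 tested genes among the other ligands and processing enzymes passed (5 with an unadjusted p below 0.05). Mif, a cytokine that also binds Cxcr4, differed by -0.88 (SE 0.32, adjusted p = 0.157), and Hmgb1, which acts with Cxcl12, had -0.33 (adjusted p = 0.134). Mmp2, a protease that can cleave Cxcl12, had 1.52 (SE 0.42, adjusted p = 0.0774), and Dpp4, which trims several CXC chemokines, had -0.28 (adjusted p = 0.552).

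**Figure D5:**
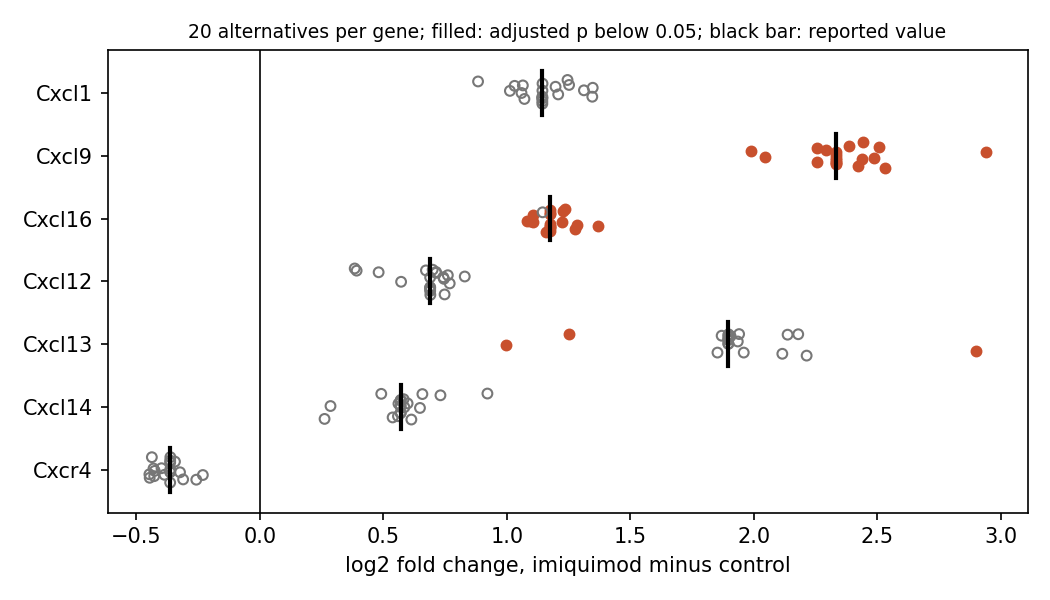
Log2 fold change, imiquimod minus control (horizontal axis), of the 7 tested genes (vertical axis) under 20 alternative settings (points, spread vertically at random) with the reported value as a black bar and filled orange points for an adjusted p below 0.05. Cxcl9 is filled in 20 of 20, Cxcl16 in 19 and Cxcl13 in 3, and no gene crosses 0.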

How the data were processed

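The authors deposited log2 signals of 8 Illumina bead arrays, 1 column per sample, and the distributions of the arrays were almost the same. The R package affy is named, with no role, in the submitters' notes on processing, and background correction is not given in the sources used here. The deposited raw table served only to name probes, since its 16 columns of per-sample values match no label of a sample. Of 24341 probes, 20038 were named through their accession and the rest by symbol or synonym where possible. The files name no build. Promoters came from RefSeq (GRCm38.p6), and the set of windows used held 8 of the 10 genes, without Cxcl5 and Cxcl16.

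Each gene was represented by its brightest probe among the 16228 kept, giving 13143 units, and tested by limma (version 3.58.1, under R 4.3.3) with moderated two-sided tests and Benjamini-Hochberg adjustment. Probes were also fitted singly. Named were all members with all their probes, other CXC chemokines and receptors, up to 4 called genes of each other list, and 3 genes of like pattern. Genes named beyond this rule, and the letters of the promoter motifs, were picked with their values known. The members and lists were chosen with earlier results of these data known. Some listed genes are counted but not reported here by name. The procedure was tested on simulated data. Alternatives covered normalization, background, the filter, the variance model, the probe of a gene, the replicate block and each tumour left out. The number of arrays limits the precision.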

Additional observations from a re-analysis of the deposited data

Results flagged for a closer look

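In 3 of 26 groups of 4 tumours, 1 tumour lay far from the rest, with a gap to its nearest neighbour beyond Dixon's critical value for that size, and chance gives about 1 in 20 such groups. For Cxcl9 these were control 1 at 7.71, the other controls lying at 6.88 to 6.99, and imiquimod 4 at 10.49, the others lying at 8.99 to 9.19. Without either of them Cxcl9 kept its call. For the dim probe of Cxcl10 it was control 3 at 6.04, a value under the limit for testing. The largest imiquimod gap of Cxcl13, at 0.715 of the range, did not reach that bound.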

How the results depend on the processing

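With 20 alternatives, 1 of them chosen after seeing the data (imiquimod 3 and 4 left out together), the direction of all 7 tested genes was kept throughout. Cxcl9 passed in all 20, Cxcl16 in 19, Cxcl13 in 3, and Cxcl1, Cxcl12, Cxcl14 and Cxcr4 in none. The number of these genes past the threshold was 2 in most settings and 3 with normexp at an offset of 16 and without imiquimod 4, which added Cxcl13. With imiquimod 3 and 4 left out it was again 2, but Cxcl9 and Cxcl13. Over the whole array the count of 569 became 278 to 911 with 1 tumour left out and 112 without imiquimod 3 and 4, settings with fewer samples. The 11 genes called among 61 in the lists of other chemokines, receptors, enzymes, signalling genes and inducers became 2 to 14 with 1 tumour left out and 1 without imiquimod 3 and 4. They became 7 with the replicate number as a block. Tumours of the same number did not deviate together (correlations of -0.02 to 0.04). This gives no sign that the numbers pair the samples but cannot exclude it. The block changed no call among the 7 genes. Averaging the kept probes lowered the log2 fold change of Cxcl12 to 0.38, since its second probe is flat. Dim probes near 6.6 carry little information at this signal over background.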
